A study of Danio rerio with 4 samples.

Results

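The genes described here are 10 genes of the endothelial cell junction and cell surface: cdh5, pecam1, esama, cldn5b, rasip1, robo4, clec14a, egfl7, plvapa and plvapb. They were taken by symbol from a table of RNA sequencing counts for 31947 zebrafish (Danio rerio) genes. Of the 10, 8 carry these symbols there, while plvapb (listed as vsg1) and plvapa (listed under a clone name) were matched by Ensembl identifier. The CHT-EC group holds 2 libraries of cells positive for mCherry driven by the promoter of kdrl, a VEGF receptor gene used to mark endothelial cells. The CHT-HSPC group holds 2 libraries of cells positive for GFP driven by the promoter of CD41 (itga2b), which marks blood stem and progenitor cells and thrombocytes. All cells were sorted by flow cytometry from the tail of embryos at 52 hours post fertilisation (hpf), where the caudal hematopoietic tissue (CHT) lies, and the sources used here give no strain or number of embryos. Separate sorts or clutches for the libraries of a group are not stated in the labels, so p-values reflect the spread between these samples alone, which may be technical.

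Endothelial cells hold the vessel wall together through adherens junctions, built on VE-cadherin and the catenins, and through tight junctions, built on claudins and the zonula occludens proteins. Small GTPases of the Rap1 pathway strengthen these junctions and open the lumen, and the diaphragms of caveolae and fenestrae control what passes the wall. In the CHT, stem and progenitor cells lodge against such endothelium. These cells themselves arise from endothelium of the dorsal aorta, and in mice ESAM and ROBO4 are also surface markers of blood stem cells.

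Library totals ranged from 27514202 to 32268535 counts, and levels are given as CPM, counts brought to the same library total, with scaling by the trimmed mean of M values (TMM). A count of 0 allows up to 3 counts, or 0.0867 to 0.112 CPM. The test was the quasi-likelihood F-test of edgeR on CHT-EC against CHT-HSPC, fitted over 19016 genes, with Benjamini-Hochberg adjustment over all of them and a threshold of 0.05. Log2 fold changes are given as CHT-EC minus CHT-HSPC, so a positive one means a higher level in CHT-EC cells. The gate genes behaved unequally: itga2b was at 4.68 and 9.31 CPM in CHT-EC cells against 56.2 and 87.0 CPM in CHT-HSPC cells (adjusted p = 0.0158), and kdrl was at 14.5 and 3.40 CPM against 3.07 and 0.896 CPM (log2 fold change 2.17, SE 0.92, adjusted p = 0.208). A list of 20 endothelial markers that are not members, kdrl among them, summed to 649 and 503 CPM in CHT-EC cells and to 406 and 393 CPM in CHT-HSPC cells. The most abundant of them, fli1a, took 151 and 232 CPM of these sums in CHT-EC cells and 239 and 223 CPM in CHT-HSPC cells. The log2 fold changes of the 20 had a median of 1.82, and 17 were above 0, against 50.8% of all genes tested. Those above 0 with an unadjusted p under 0.05 numbered 11, against 14.6% of all genes. By adjusted p the alternative tool DESeq2 placed 8 of the 20 toward CHT-EC and 1 toward CHT-HSPC, against 10.9% and 3.91% of all genes. With limma-voom, another such tool, these numbers were 1 and 0, against 3.71% and 1.23%. In edgeR stab2 alone of the 20 passed, and did so toward CHT-EC, as did 3.78% of all genes. The VEGF receptor gene kdr lay the other way, at 5.66 and 2.89 CPM in CHT-EC cells against 11.6 and 13.9 CPM in CHT-HSPC cells (log2 fold change −1.57, SE 0.53, adjusted p = 0.136), as did sox17 (−0.91) and fli1a (−0.27). A count of 0 was found for lyve1b in CHT-HSPC replicate 2.

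The CHT-EC libraries also held markers of other cells. Neutrophil markers summed to 23960 and 18770 CPM there, against 1250 and 1467 CPM in CHT-HSPC cells. All 10 had log2 fold changes above 0, and 9 passed the edgeR test toward CHT-EC, against 3.78% of all genes. Red cell markers summed to 20970 and 36950 CPM against 2686 and 1818 CPM, with 13 of 14 above 0 and 9 past the test toward CHT-EC. Notochord markers summed to 13850 and 3434 CPM against 52.5 and 82.2 CPM. The 4 tested all passed toward CHT-EC, and shhb was at 0 outside CHT-EC replicate 1. Macrophage markers summed to 404 and 266 CPM against 9.20 and 7.26 CPM, with all 8 above 0 and 6 past the test toward CHT-EC. Among them c1qa, c1qb and c1qc were at 0 in both CHT-HSPC libraries. Counts in CHT-HSPC replicates 1 and 2 were 0 and 5 for grna and 8 and 7 for mpeg1.1. All of these lie under the filter's minimum count of 10. These genes thus passed the filter through the CHT-EC libraries alone, so their direction was fixed by it and is no support. Stem and thrombocyte markers summed to 538 and 809 CPM in CHT-EC cells, against 1958 and 2195 CPM in CHT-HSPC cells. Of these 11, 9 had log2 fold changes below 0 and 6 passed toward CHT-HSPC, against 0.752% of all genes. Muscle markers stood at 3052 and 6715 CPM in CHT-EC cells and 15790 and 1978 CPM in CHT-HSPC cells, so CHT-HSPC replicate 1 stood apart, and none of the 10 passed in edgeR, DESeq2 or limma-voom, with 1 at an unadjusted p under 0.05 in edgeR. The groups are therefore named by their gates. In such bulk samples, fewer cells of a type and less RNA per cell cannot be told apart.

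All 10 junction and surface genes had a higher fitted level in CHT-EC cells than in CHT-HSPC cells, against 50.8% of all genes tested. Their log2 fold changes ran from 1.15 for plvapa to 4.69 for egfl7. The median over the 10 was 2.21, against 0.02 over all genes tested and the 1.82 of the endothelial list. For 8 of the 10 both CHT-EC libraries lay above both CHT-HSPC libraries, which was so for 30.6% of all genes tested, and the exceptions were cdh5 and plvapa. None of the 10 passed the edgeR test, with adjusted p from 0.0546 to 0.713, where 3.78% of all genes passed with a higher level in CHT-EC cells and 0.752% with a higher level in CHT-HSPC cells. At an unadjusted p under 0.05, 7 of the 10 were higher in CHT-EC and none in CHT-HSPC cells, against 14.6% and 9.23% of all genes. DESeq2 placed 7 of the 10 higher in CHT-EC, against 10.9% of all genes, and limma-voom placed none, against 3.71%. Neither tool placed any of the 10 higher in CHT-HSPC, as they did 3.91% and 1.23% of all genes. With no filter on low counts edgeR placed 8 of the 10 higher in CHT-EC and none in CHT-HSPC cells, against 8.50% and 3.26% of all genes. These shares are description only, as the members and lists were chosen with earlier results of these data known.

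**Figure D1:**
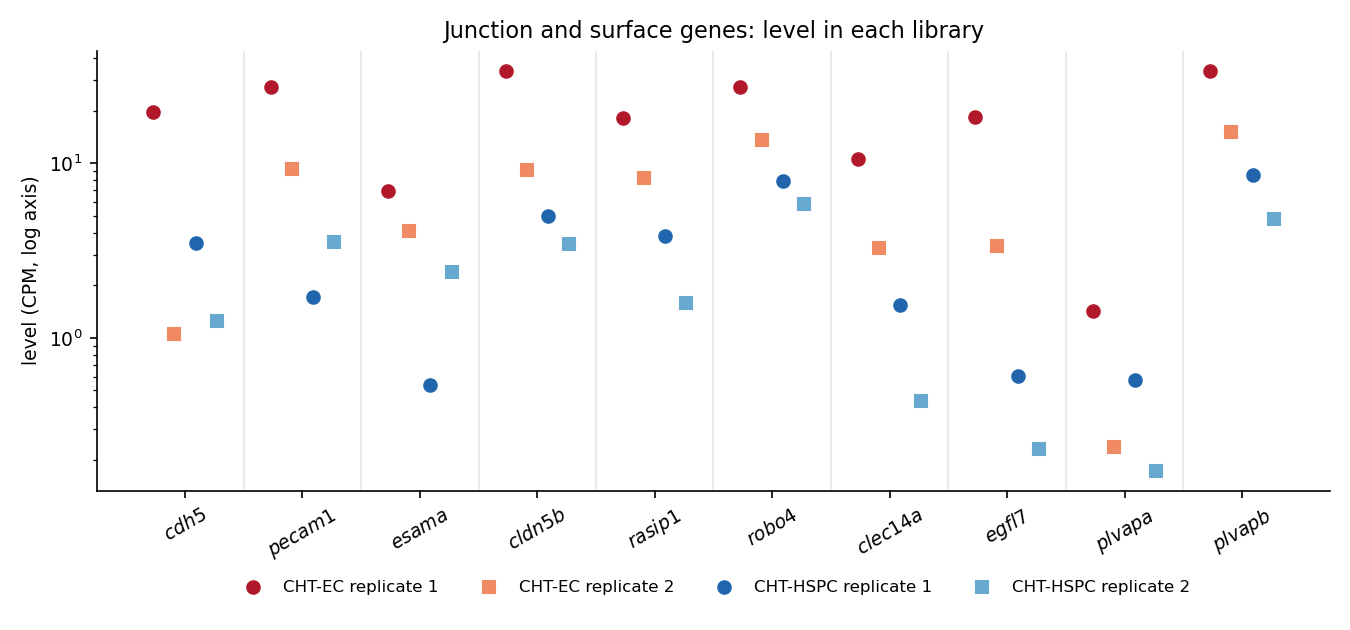
Level of each of the 10 genes in CPM on a log axis, with a point per library (CHT-EC in red and orange, CHT-HSPC in dark and light blue). CHT-EC replicate 1 is the highest library for every gene, and CHT-EC replicate 2 lies above both CHT-HSPC libraries except for cdh5 and plvapa.

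VE-cadherin, the product of cdh5 (ENSDARG00000075549), is the adhesive core of the endothelial adherens junction. Its gene was at 19.8 and 1.05 CPM in CHT-EC replicates 1 and 2, against 3.50 and 1.24 CPM in CHT-HSPC replicates 1 and 2. CHT-EC replicate 1 stood alone at the top and CHT-EC replicate 2 was the lowest of the 4 libraries, so the groups overlapped. The fitted log2 fold change was 2.13 (SE 1.22, adjusted p = 0.335). It was −1.15 without CHT-EC replicate 1, so the direction of cdh5 rested on that library. The counts were 528 and 31 in CHT-EC cells and 104 and 43 in CHT-HSPC cells, and the gap between the CHT-EC libraries was 18.8-fold, with a counting interval of 13.1 to 27.9.

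PECAM-1, encoded by pecam1 (ENSDARG00000060263), is an immunoglobulin-family adhesion protein of endothelial contacts, which in mammals is also carried by platelets and leukocytes. The level of pecam1 was 27.5 and 9.24 CPM in CHT-EC cells, against 1.72 and 3.56 CPM in CHT-HSPC cells. Both CHT-EC libraries were above both CHT-HSPC libraries, and within CHT-HSPC replicate 2 was the higher. The means were 18.4 ± 12.9 CPM and 2.64 ± 1.3 CPM (SD, n = 2 libraries each), with a log2 fold change of 2.79 (SE 0.69, adjusted p = 0.0721). It ran from 1.80 without CHT-EC replicate 1 to 3.45 without CHT-HSPC replicate 2.

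The related adhesion gene esama (ENSDARG00000077039) encodes an endothelial tight junction protein. It had 6.97 and 4.11 CPM in CHT-EC cells, against 0.539 and 2.37 CPM in CHT-HSPC cells. The groups did not overlap, the nearest libraries being CHT-EC replicate 2 and CHT-HSPC replicate 2. The log2 fold change of 1.92 (SE 0.88) did not pass (adjusted p = 0.240). Leaving out CHT-HSPC replicate 1 gave 1.23, and leaving out CHT-HSPC replicate 2 gave 3.39. Of the 10 genes, esama and pecam1 were those with CHT-HSPC replicate 2 above replicate 1: their replicate 1 to replicate 2 ratios there were 0.228 for esama and 0.483 for pecam1, with counting intervals of 0.124 to 0.392 and 0.342 to 0.675. The stem and thrombocyte gene itga2b was likewise higher in CHT-HSPC replicate 2, by the values given above. Of the 11 stem and thrombocyte markers, 4 went the other way, gp1bb and tal1 among them. The part of these cells in this was not tested.

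Claudin-5, the main sealing claudin of endothelial tight junctions in mammals, has a pair of zebrafish genes. Of these cldn5b (ENSDARG00000014059) was at 33.96 and 9.18 CPM in CHT-EC cells, against 4.99 and 3.44 CPM in CHT-HSPC cells. The CHT-HSPC libraries were close to each other and both CHT-EC libraries stood above them, CHT-EC replicate 1 by far. The log2 fold change was 2.35 (SE 0.67, adjusted p = 0.0985), and without CHT-EC replicate 1 it was 1.13. Its paralogue cldn5a, named here for that reason and not by the naming rule, was at 33.5 and 19.9 CPM in CHT-EC cells, against 11.2 and 12.1 CPM in CHT-HSPC cells (log2 fold change 1.2, SE 0.40, adjusted p = 0.137). The handling of reads shared by the paralogues was not given, so the single values carry that uncertainty.

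Rasip1 binds Ras and Rap GTPases at endothelial junctions and is needed in mice for the opening of the vessel lumen. The level of rasip1 (ENSDARG00000074829) was 18.1 and 8.29 CPM in CHT-EC cells, against 3.84 and 1.59 CPM in CHT-HSPC cells. In each group replicate 1 was the higher by a similar ratio, 2.18 in CHT-EC cells and 2.42 in CHT-HSPC cells, and the groups did not overlap. The log2 fold change was 2.28 (SE 0.67, adjusted p = 0.104), and it was 1.63 to 3.05 when any 1 library was left out.

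Among the surface receptors, robo4 encodes a roundabout-family receptor of endothelium that stabilises vessels. The level of robo4 (ENSDARG00000009387) was 27.3 and 13.7 CPM in CHT-EC cells, against 7.95 and 5.87 CPM in CHT-HSPC cells. The 4 libraries were ordered without overlap between groups, and the spread within each group was narrow compared with that of cdh5. The mean was 20.5 ± 9.63 CPM in CHT-EC cells and 6.91 ± 1.47 CPM in CHT-HSPC cells (SD, n = 2 each), with a log2 fold change of 1.57 (SE 0.49, adjusted p = 0.118). Clec14a is a C-type lectin family protein of vessels, which in humans and mice binds the matrix protein multimerin-2. Levels of clec14a (ENSDARG00000103533) were 10.6 and 3.26 CPM in CHT-EC cells, against 1.55 and 0.434 CPM in CHT-HSPC cells. The replicate 1 to replicate 2 ratio was 3.26 in CHT-EC cells and 3.58 in CHT-HSPC cells, and the groups did not overlap. Counting intervals of these ratios were 2.58 to 4.16 and 1.96 to 6.89, the CHT-HSPC ratio resting on 46 and 15 counts. The log2 fold change was 2.81 (SE 0.94, adjusted p = 0.134), and it ran from 1.74 without CHT-EC replicate 1 to 3.99 without CHT-HSPC replicate 1.

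The secreted factor Egfl7, made by endothelial cells and tied to the extracellular matrix, had the largest difference of the 10. Its gene egfl7 (ENSDARG00000100657) was at 18.4 and 3.36 CPM in CHT-EC cells, against 0.607 and 0.231 CPM in CHT-HSPC cells, where the counts were 18 and 8. Even CHT-EC replicate 2 lay well above both CHT-HSPC libraries. The fitted difference was 25.9-fold, a log2 fold change of 4.69 (SE 1.03), and at an adjusted p of 0.0546 it came nearest of the 10 to the threshold. Over the 11 alternative settings the log2 fold change of egfl7 ran from 3.01 to 5.53 and its adjusted p from 2.47e-07 to 0.418. The lowest fold change and highest adjusted p were those without CHT-EC replicate 1, while without CHT-EC replicate 2 the gene passed (adjusted p = 0.0202).

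Plvap forms the diaphragms of fenestrae and caveolae in mammals. The level of plvapb (ENSDARG00000045003) was 33.7 and 15.1 CPM in CHT-EC cells, against 8.63 and 4.77 CPM in CHT-HSPC cells. The groups did not overlap, and the log2 fold change was 1.86 (SE 0.54, adjusted p = 0.103). Its paralogue plvapa (ENSDARG00000076972) was at 1.42 and 0.238 CPM in CHT-EC cells, against 0.573 and 0.174 CPM in CHT-HSPC cells. These values rest on 38 and 7 counts in CHT-EC cells and 17 and 6 counts in CHT-HSPC cells, and CHT-HSPC replicate 1 lay above CHT-EC replicate 2. At this depth no difference was detectable for plvapa (log2 fold change 1.15, SE 1.58, adjusted p = 0.713), and without CHT-EC replicate 1 the value was −0.62.

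The CHT-EC replicates differed for every one of the 10. All 10 genes were higher in CHT-EC replicate 1 than in CHT-EC replicate 2, against 51.3% of all genes tested. So were 16 of the 20 endothelial markers and 7 of 9 caveola genes. The ratios of the 10 ran from 1.70 for esama through 2.0 for robo4 to 5.46 for egfl7, 5.99 for plvapa and 18.8 for cdh5. Only 0.484% of all genes tested had a larger ratio than cdh5 (computed with 0.1 CPM added), against 21.6% for esama, the lowest of the 10. Summed over the 10 genes the level was 198 and 67.5 CPM in CHT-EC cells, against 33.9 and 23.7 CPM in CHT-HSPC cells. Between CHT-EC replicates 1 and 2 the summed notochord (13850 and 3434 CPM), epidermal (3297 and 1747 CPM), neutrophil, macrophage and endothelial markers ran in the same direction. Red cell, muscle, stem and thrombocyte, and neural markers (371 and 404 CPM) ran the other way. The part of these cells in the gap was not tested. Without CHT-EC replicate 1 the median log2 fold change of the 10 was 1.33, 8 of the 10 stayed on the CHT-EC side, and none had an unadjusted p under 0.05 toward CHT-EC in edgeR, as 8.10% of all genes had. Without CHT-EC replicate 2 the median was 2.89, and cldn5b (adjusted p = 0.0339), pecam1 (0.0424) and egfl7 passed, 3 of the 10 against 2.82% of all genes.

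**Figure D2:**
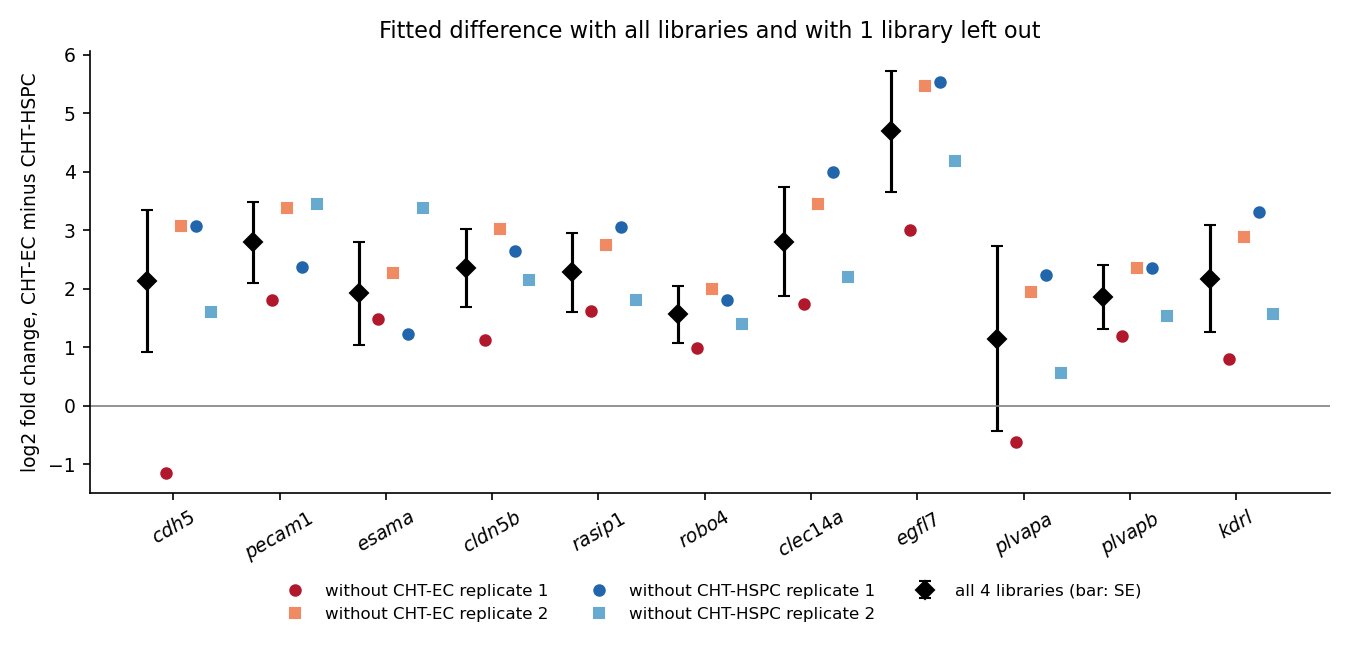
Fitted log2 fold change (CHT-EC minus CHT-HSPC) of the 10 genes and of kdrl, with all 4 libraries (black diamonds, bars are SE) and with each library left out in turn (coloured points). Without CHT-EC replicate 1 the values of cdh5 and plvapa lie below 0, at −1.15 and −0.62, and the other members stay above 0.

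**Figure D3:**
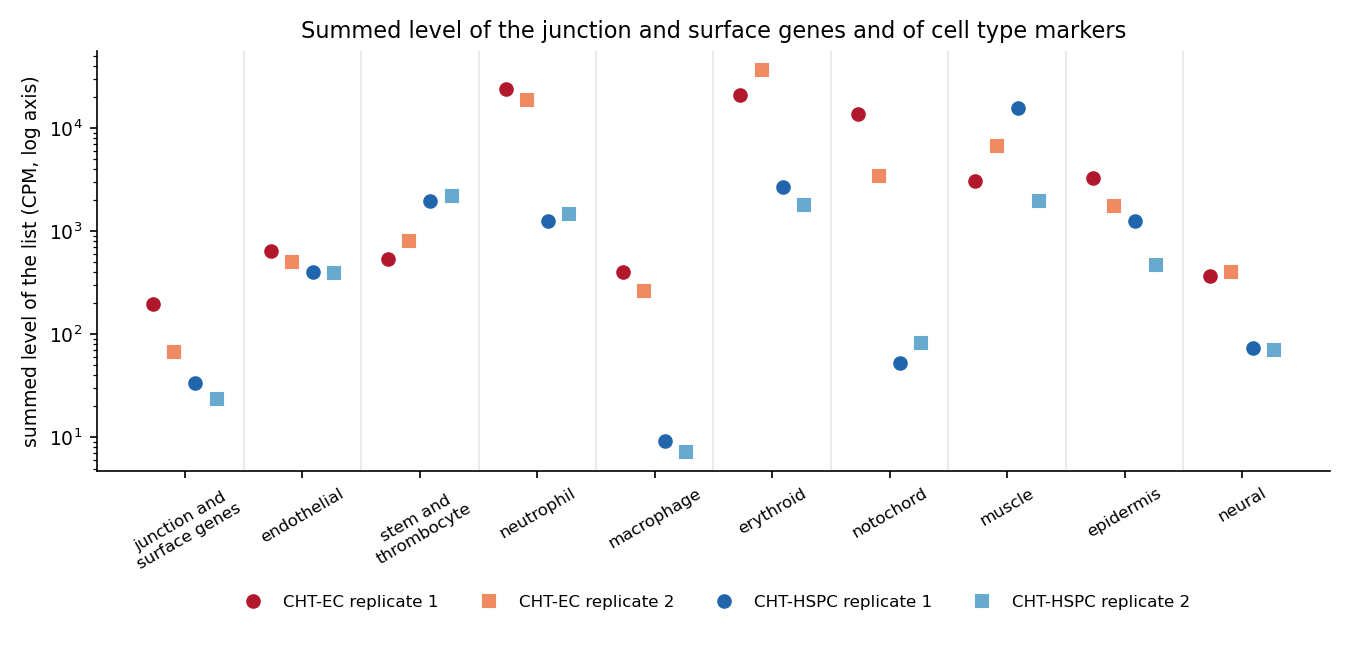
Summed level in CPM, on a log axis, of the 10 genes and of 9 marker lists in each library. The 10 genes and the endothelial, neutrophil, macrophage, notochord and epidermal lists have CHT-EC replicate 1 above replicate 2, and the stem and thrombocyte, red cell, muscle and neural lists have replicate 2 above replicate 1.

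Setting each count against that of kdrl in the same library gives a value that does not depend on library scaling. There were 386 and 100 kdrl counts in CHT-EC cells and 91 and 31 in CHT-HSPC cells. For egfl7 there were 1.27 and 0.99 counts per kdrl count in CHT-EC cells, against 0.198 and 0.258 in CHT-HSPC cells. The exact 95% counting intervals were 1.11 to 1.45 and 0.742 to 1.32 in CHT-EC cells. Those in CHT-HSPC cells were 0.112 to 0.33 and 0.102 to 0.574. The intervals did not overlap between groups and cover read counting only, with each read taken as a separate molecule. The gene clec14a was also above in both CHT-EC libraries, at 0.736 and 0.96 per kdrl count against 0.505 and 0.484 in CHT-HSPC cells, but its counting intervals overlapped. Of all genes tested, 3.70% had both CHT-EC libraries above both CHT-HSPC libraries on this ratio. For 7 of the 10 the ratios overlapped between groups: robo4 had 1.89 and 4.02 in CHT-EC cells against 2.59 and 6.55 in CHT-HSPC cells, and plvapb had 2.33 and 4.45 against 2.81 and 5.32. For plvapa the ratio was lower in CHT-EC cells, at 0.0984 and 0.07 against 0.187 and 0.194, on few counts and with overlapping counting intervals. The fitted level of kdrl was itself higher in CHT-EC cells, without passing the edgeR test (log2 fold change 2.17, SE 0.92, adjusted p = 0.208). A higher kdrl level lowers this ratio for any gene.

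The ratio also set cdh5 apart within CHT-EC cells. There were 1.37 cdh5 counts per kdrl count in CHT-EC replicate 1 and 0.31 in CHT-EC replicate 2, against 1.14 and 1.39 in CHT-HSPC cells, so CHT-EC replicate 2 was low in cdh5 even for its kdrl. In the opposite way esama and pecam1 were low in CHT-HSPC replicate 1 for its kdrl, with 0.176 and 0.56 counts per kdrl count, against 2.65 and 3.97 in CHT-HSPC replicate 2. Set against the summed counts of the endothelial list in place of kdrl, 8 of the 10 genes lay above in both CHT-EC libraries, against 20.0% of all genes. That list is led in every library by fli1a, a transcription factor also found in thrombocytes.

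**Figure D4:**
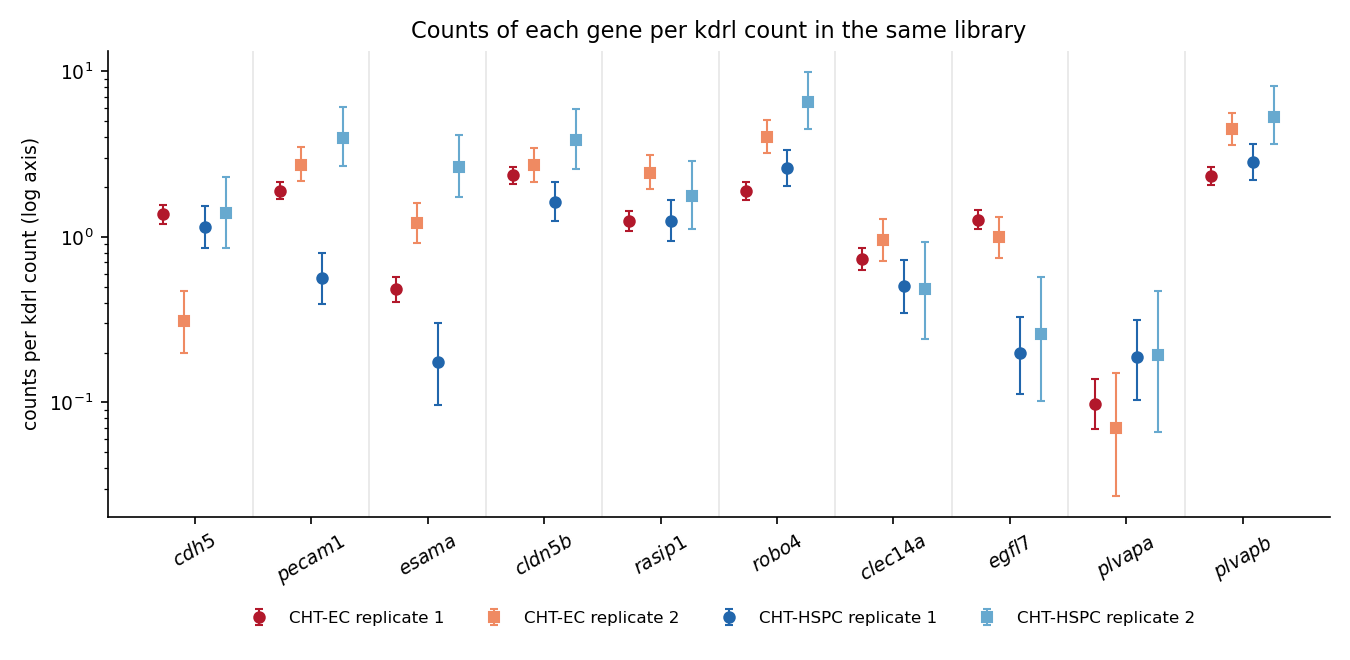
Counts of each of the 10 genes per kdrl count in the same library, on a log axis, with exact 95% counting intervals. For egfl7 both CHT-EC libraries (1.27 and 0.99) are clear of both CHT-HSPC libraries (0.198 and 0.258), and for cdh5 only CHT-EC replicate 2 (0.31) stands away from the other libraries.

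The proteins that work with these members were covered by a list of 57 partner genes, of which 53 were found in the table and 51 were tested. Of the 51, 36 had log2 fold changes above 0, against 50.8% of all genes tested, and 15 had them below 0. In edgeR 5 passed toward CHT-EC and none toward CHT-HSPC, against 3.78% and 0.752% of all genes. At an unadjusted p under 0.05 the numbers were 15 and 0, against 14.6% and 9.23% of all genes. DESeq2, which gave an adjusted p for 50 of the partner genes, placed 9 and 0, against 10.9% and 3.91% of all genes. With limma-voom 4 and 0 were placed, against 3.71% and 1.23%. The median log2 fold change was 0.47, with values from −0.66 to 4.6. For the 5 that passed in edgeR, the log2 fold changes without CHT-EC replicate 1 ran from 1.45 for afdna to 3.05 for cav2. Without CHT-HSPC replicate 2 they ran from 1.68 for slit3 to 4.81 for cav2.

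Among 9 adherens junction partners, cdh2 and afdna passed the edgeR test toward CHT-EC. N-cadherin, encoded by cdh2, joins endothelial cells to mural cells and is abundant in neural tissue and muscle. The level of cdh2 was 109 and 60.5 CPM in CHT-EC cells, against 23.5 and 14.3 CPM in CHT-HSPC cells (log2 fold change 2.17, SE 0.41, adjusted p = 0.0375). The call ended when CHT-EC replicate 1 (0.178) or CHT-HSPC replicate 2 (0.0739) was left out. Neural markers summed to 371 and 404 CPM in CHT-EC cells, against 74.2 and 70.5 CPM in CHT-HSPC cells. Of these 7 markers, 6 passed the edgeR test toward CHT-EC, against 3.78% of all genes. Between the CHT-EC replicates the neural sum ran opposite to cdh2. All 10 muscle markers had fitted log2 fold changes below 0, as had 9348 of the 19016 genes tested, and all 10 overlapped between groups. Their sums in CHT-EC cells, 3052 and 6715 CPM, lay between those of CHT-HSPC replicates 2 (1978 CPM) and 1 (15790 CPM). The part of neural or muscle cells was not tested. Afadin, encoded by afdna (listed as mllt4a), ties nectins to actin. It was at 41.5 and 27.2 CPM in CHT-EC cells, against 10.3 and 9.69 CPM in CHT-HSPC cells (log2 fold change 1.78, SE 0.38, adjusted p = 0.0491), and was lost whichever library was left out (0.0653 to 0.262). The catenin gene ctnnb1, whose product links cadherins to actin and serves Wnt signalling, had 269 and 199 CPM in CHT-EC cells and 263 and 270 CPM in CHT-HSPC cells. Its groups overlapped, with a log2 fold change of −0.19 (SE 0.26, adjusted p = 0.717).

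Of 11 tight junction and JAM genes, tjp1a passed the edgeR test toward CHT-EC. It encodes a zonula occludens scaffold and was at 53.8 and 47.4 CPM in CHT-EC cells, against 15.4 and 12.3 CPM in CHT-HSPC cells (log2 fold change 1.87, SE 0.32, adjusted p = 0.0292). The replicates of each group were close for tjp1a, yet the call ended without CHT-EC replicate 1 (0.146), CHT-EC replicate 2 (0.0621) or CHT-HSPC replicate 2 (0.0677). Its paralogue tjp1b was at 42.7 and 25.6 CPM in CHT-EC cells and 37.8 and 35.9 CPM in CHT-HSPC cells, with a log2 fold change of −0.11 (SE 0.35, adjusted p = 0.888). The largest fitted difference in this role was that of jam3a (2.22, SE 1.47, adjusted p = 0.403), on 57 and 27 counts in CHT-EC cells and 2 and 20 in CHT-HSPC cells.

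None of the 11 tested genes of the Rap1 pathway and the CCM complex, in which Rasip1 and the junctional receptor Heg act, passed in edgeR, DESeq2 or limma-voom, and 1 had an unadjusted p under 0.05 in edgeR. The GTPase gene rap1b was at 302 and 329 CPM in CHT-EC cells and 389 and 313 CPM in CHT-HSPC cells (log2 fold change −0.15, SE 0.25, adjusted p = 0.760). The Rap1 effector gene radila (listed as radil) was at 1.69 and 3.53 CPM in CHT-EC cells, against 0.741 and 0.405 CPM in CHT-HSPC cells. The groups did not overlap for radila, and its log2 fold change was 2.18 (SE 1.01, adjusted p = 0.248).

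Relatives of Robo4 and Clec14a numbered 11 tested genes, of which slit3, a secreted ligand of roundabout receptors, passed the edgeR test toward CHT-EC. The level of slit3 was 88.7 and 67.9 CPM in CHT-EC cells, against 25.1 and 12.7 CPM in CHT-HSPC cells (log2 fold change 2.05, SE 0.40, adjusted p = 0.0403). The call ended without CHT-EC replicate 1 (0.180), CHT-EC replicate 2 (0.0602) or CHT-HSPC replicate 2 (0.0682). Thrombomodulin, a relative of Clec14a that in mammals restrains clotting on endothelium, is listed as THBD, and thbd had 16 and 11 counts in CHT-EC cells against 1 and 0 in CHT-HSPC cells. With counts summed over the libraries of each group, 27 against 1, the scaled ratio was 30.9, with an exact counting interval of 5.1 to 1270. The interval covers read counting only and leaves out the spread between libraries, which the edgeR test takes in (adjusted p = 0.264). The gene thbd passed the filter through the CHT-EC libraries alone and was named for the largest fold change in its role. Its ratio and interval are therefore description only.

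Caveolae, the membrane pits that Plvap closes in mammals, were covered by 9 genes, of which cav2 passed the edgeR test toward CHT-EC. Caveolin-2 is a coat protein of these pits, and cav2 was at 28.1 and 7.0 CPM in CHT-EC cells, against 0.64 and 1.04 CPM in CHT-HSPC cells (log2 fold change 4.37, SE 0.81, adjusted p = 0.0354). It was lost without CHT-EC replicate 1 (0.252), without CHT-HSPC replicate 1 (0.0589) and with limma-voom (0.116). The membrane-shaping ATPase gene ehd2b was at 271 and 43.4 CPM in CHT-EC cells, against 9.91 and 15.2 CPM in CHT-HSPC cells, and missed the threshold narrowly (log2 fold change 3.65, SE 0.81, adjusted p = 0.0549), and passed without CHT-EC replicate 2 (log2 fold change 4.45, adjusted p = 0.00377). Summed over the caveola genes the level was 542 and 136 CPM in CHT-EC cells, against 85.5 and 122 CPM in CHT-HSPC cells, so only CHT-EC replicate 1 stood clear. In that library the notochord list, whose cells are rich in caveolae, was also highest, at the 13850 CPM given above, as were the other lists named above with CHT-EC replicate 1 on top, and their part was not tested.

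**Figure D5:**
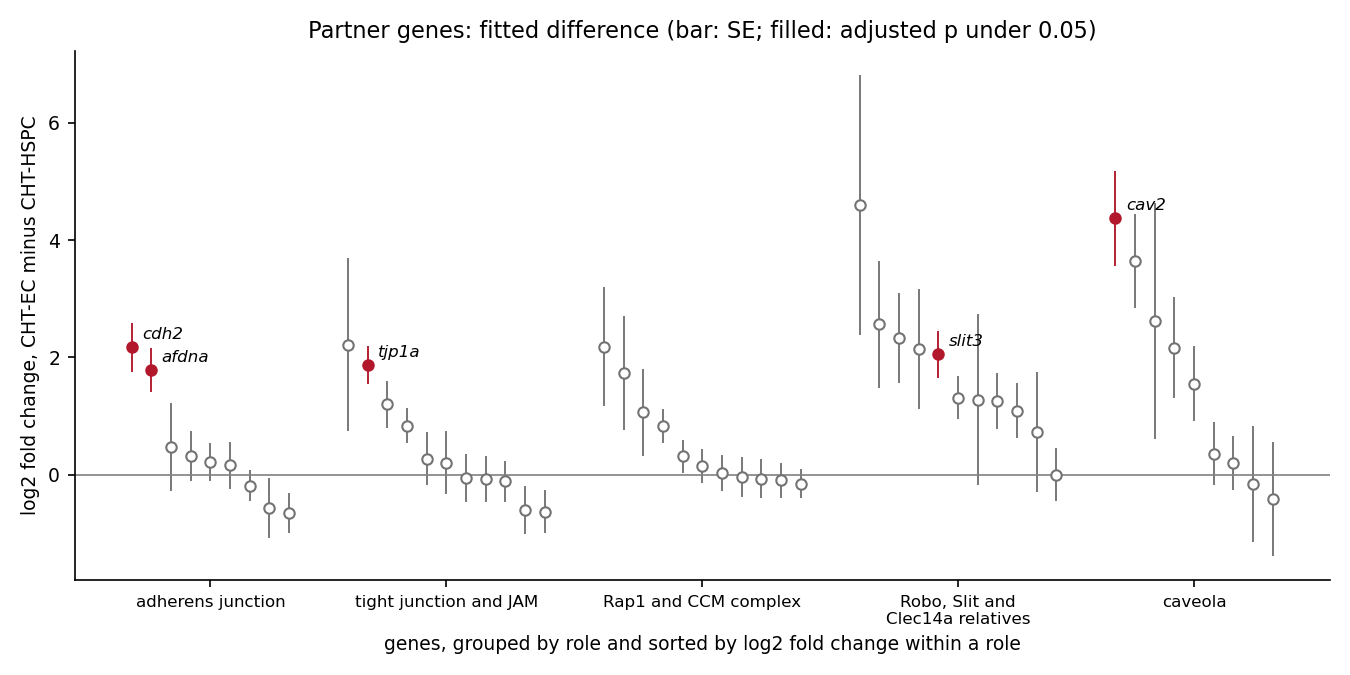
Fitted log2 fold change (CHT-EC minus CHT-HSPC, bars are SE) of the 51 partner genes tested, grouped by role and sorted within a role. The filled and named points are the 5 genes past the threshold, all above 0. Role medians run from 0.15 for Rap1 and CCM genes to 1.55 for caveola genes, and the difference between roles was not tested.

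Genes with a similar pattern over the 4 libraries were sought by distance. Each gene's log2(CPM + 1) values were centred on their mean and compared with the mean centred profile of the 9 members with at least 1 CPM on average. Of 16046 genes compared, the nearest that were not members were cpz, a carboxypeptidase gene (Euclidean distance 0.0876), fgfr1b, a fibroblast growth factor receptor gene (0.114), stab1, a scavenger receptor gene of sinusoidal endothelium (0.115), srpx (0.124) and fgfr2 (0.124). The median distance over all genes was 2.26. Among the members themselves cldn5b was nearest to the mean of the others (0.222) and cdh5 the farthest (1.75), followed by esama (1.4) and egfl7 (1.13). With 4 libraries, such distances describe the profiles and carry no test.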

How the data were processed

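The authors deposited counts for each Ensembl gene in 1 table, not normalised, with a column per library. TopHat2 and HTSeq 0.6.1 with genome build GRCz10 are named in the submitters' processing notes. Neither the strand setting nor the handling of reads shared by genes was given in the sources used here. Per the labels' protocols the library kit was NEBNext Ultra, whose standard form is not stranded, and reads were paired, of 150 bp. They carry no molecular identifiers, so the intervals take each read as a separate molecule and leave out error from copied reads.

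The 19016 genes left by filterByExpr (minimum count 10, minimum total 15) were tested with edgeR (version 4.0.16, under R 4.3.3) on group alone. Alternatives used DESeq2 1.42.0, limma-voom 3.58.1, other scaling factors, no filter, the replicate number as a block, and each library left out in turn. The test was tested on simulated data with known changes. Named partner genes are those past the threshold and, per role, the gene with the highest mean CPM and that with the largest absolute log2 fold change. The members and lists were chosen with earlier results of these data known, and the ratios to kdrl and to the endothelial list were added after the values were seen. Symbols not in the table were matched through older symbols or identifiers.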

Additional observations from a re-analysis of the deposited data

How the results depend on the processing

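The log2 fold changes of the 10 members kept their direction in 108 of 110 combinations of member and alternative. Most alternatives refit the same 4 libraries, so these combinations are not separate evidence of direction. Both reversals were without CHT-EC replicate 1. Leaving out 1 library gave −1.15 to 3.08 for cdh5 and −0.62 to 2.24 for plvapa. Members placed higher in CHT-EC numbered 0 in edgeR with TMM factors, 8 with no filter on low counts, 7 with DESeq2, 1 with upper-quartile factors, 1 with the replicate number as a block, and 0 to 3 with 1 library left out. Partner genes placed higher in CHT-EC numbered 5, and 11 with no filter, 9 with DESeq2 and 0 to 4 with 1 library left out. Over all genes, 718 passed the edgeR test toward CHT-EC and 143 toward CHT-HSPC. These counts were 2119 and 812 with no filter and 2079 and 748 with DESeq2. Of 19016 genes tested, they were 769 and 149 with upper-quartile factors and 813 and 127 with the replicate number as a block. They were 471 in CHT-EC with library totals alone, 233 in CHT-HSPC with limma-voom, and 111 to 864 and 10 to 139 with 1 library left out. The causes were not tested. Nothing in the labels says that the replicate numbers pair libraries, so the block is given here only. With it egfl7 passed the edgeR test (adjusted p = 0.0177). The deviations of same-numbered libraries had a correlation of −0.00936 over genes, which cannot settle pairing for single genes. Replicate 1 was above replicate 2 for 10 of the 10 members in CHT-EC and 8 in CHT-HSPC cells. For the 20 endothelial markers these numbers were 16 and 14. Over the 19016 genes tested they were 9759 and 9092. The median log2 fold change of all genes was 0.02, and over the alternatives it was highest, at 0.18, without CHT-HSPC replicate 2. Depth limits plvapa, with 6 to 38 counts per library, and egfl7 in CHT-HSPC. It also limits clec14a in CHT-HSPC replicate 2, with 15 counts, and esama in CHT-HSPC replicate 1, with 16 counts.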

Other observations

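A second row of the table, written PECAM1 in capitals (ENSDARG00000103020, named pecam1b in the reference list), had 87 and 13 counts in CHT-EC and 0 and 42 counts in CHT-HSPC, and repeats the order of CHT-HSPC libraries seen for pecam1 (log2 fold change 1.59, SE 1.87, adjusted p = 0.657). The esama paralogue esamb, below the filter, had 4 and 5 counts in CHT-EC and 0 in both CHT-HSPC libraries.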
